A study of Homo sapiens with 12 samples.

Results

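The genes chosen are 49 named genes of the cell division cycle, 25 that serve DNA replication in S phase and 24 that serve mitosis. Members were taken by gene symbol from the table of raw counts per gene. CCNE2 is not analysed here, which leaves 48 genes, 24 of replication and 24 of mitosis, among the 10940 genes in the table. All 48 passed the filter on low counts, which kept 10459 genes. HepG2 is an established human liver cancer line, labelled wild type. The cells were maintained and seeded in EMEM and then given 1 of 4 media, each with 10% heat-inactivated fetal bovine serum. Plasmax-TE+Fe was Plasmax made without trace elements and given iron, Plasmax-TE was Plasmax made without trace elements, Plasmax was the complete form of that medium, and EMEM was Eagle's minimum essential medium. Plasmax is a medium formulated to resemble human plasma. The medium was switched 24 h after seeding, renewed once after 48 h, and left on until harvest at 96 h. There were 3 libraries a medium, all of 1 cell line. Whether they derive from independent cultures is not in the labels, and a p-value here weighs differences against a spread that may be technical. The iron-supplemented medium lacks the other trace elements that Plasmax holds, so it differs from Plasmax by more than 1 component.

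As background, DNA is copied once per cell cycle. The proteins CDC6 and CDT1 load the ring-shaped MCM helicase at origins, CDC45 and the GINS complex turn it into an active helicase, and polymerases held by the PCNA clamp copy both strands. Ribonucleotide reductase, whose small subunit RRM2 carries an iron centre, makes the deoxynucleotides. Mitosis genes are switched on later in the cycle. They encode CDK1 and its cyclins, the kinases that build the spindle, the proteins that tie chromosomes to it, and the ubiquitin machinery that ends mitosis.

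Library totals ran from 1562125 to 2384090 counts, so that 1 count was worth 0.419 to 0.64 CPM, the unit used here for counts scaled to a common library total. Hepatocyte markers, used to check the cell line label, were all in the table (11 of 11), with summed levels of 16900 to 18770 CPM in Plasmax-TE+Fe, 21290 to 24960 CPM in Plasmax-TE, 12650 to 13690 CPM in Plasmax and 34470 to 37760 CPM in EMEM. Their sum, like that of the mitosis genes, was lowest in Plasmax, but single markers differed: SERPINA1, KRT8 and KRT18 were called higher in Plasmax than in EMEM and lower in Plasmax-TE than in Plasmax. The part of these markers in the results was not tested. Of 8 markers of other cells, 4 were in the table, and their sums were 1033 to 1759 CPM in Plasmax-TE+Fe, 825.7 to 1711 CPM in Plasmax-TE, 1285 to 1744 CPM in Plasmax and 2148 to 2529 CPM in EMEM. Plasmax-TE+Fe replicate 2 and Plasmax-TE replicate 1, which carry the adjacent library numbers 88 and 87, stood apart from the other libraries of their media. Both lay below the other 4 libraries of these media in 10 of 24 replication genes and 9 of 24 mitosis genes, and so did 12.9% of all genes tested. RRM2, MCM2, MCM6 and E2F1 were among these replication genes, and CDK1, CCNA2, PLK1 and CDC20 among these mitosis genes. Both lay above the other 4 libraries in MKI67 and CENPF among the mitosis genes and in POLA1 among the replication genes, and in 23.2% of all genes tested. Counts with and without this pair of libraries are given below. Plasmax replicate 3 also stood apart from its medium. The chi-square of counts per degree of freedom was 6.63 and 6.1 against Plasmax replicates 1 and 2, and 2.44 between these. For Plasmax-TE replicate 1 it was 6.04 and 6.99 against replicates 2 and 3, and 2.47 between these. For Plasmax-TE+Fe replicate 2 it was 7.76 and 7.38 against replicates 1 and 3, and 2.37 between these. Without Plasmax replicate 3, 10 mitosis genes were called in Plasmax against EMEM and 10 in Plasmax-TE against Plasmax. The share of all genes called in that fit is not given here.

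The promoter sequences of 8 members are shown because the results turn on these genes or on the contrast between both lists. RefSeq promoters (GRCh38.p14, from 250 bases before to 50 bases after the annotated start) were at hand for 22 replication and 19 mitosis members, but not for MCM4, MCM5, AURKA, BIRC5, TTK, TPX2 and UBE2C. Short sequences were searched on both strands. The CHR (cell cycle genes homology region), known as a binding site of MuvB complexes, was searched as TTTGAA or TTCGAA. The NF-Y box was searched as CCAAT, and the E2F motif as TTCCCGC or TTCGCGC or TTGCCGC or TTGGCGC, so that an NF-Y box preceded by GCG can count under both. Each printed stretch runs 5′ to 3′ on the gene's strand from 150 bases before to 30 bases after the start, with matches in capitals.
MKI67: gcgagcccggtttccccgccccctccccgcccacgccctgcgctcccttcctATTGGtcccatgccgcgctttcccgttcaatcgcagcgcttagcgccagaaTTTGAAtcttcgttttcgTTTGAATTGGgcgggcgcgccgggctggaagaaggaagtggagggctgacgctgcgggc
HMMR: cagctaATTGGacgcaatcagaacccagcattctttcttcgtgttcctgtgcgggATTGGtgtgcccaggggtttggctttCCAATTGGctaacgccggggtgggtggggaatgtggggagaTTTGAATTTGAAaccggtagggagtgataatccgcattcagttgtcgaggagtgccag
KIF11: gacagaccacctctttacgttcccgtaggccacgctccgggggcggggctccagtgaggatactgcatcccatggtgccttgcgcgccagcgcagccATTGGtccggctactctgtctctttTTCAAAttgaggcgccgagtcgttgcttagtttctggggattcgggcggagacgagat
CENPA: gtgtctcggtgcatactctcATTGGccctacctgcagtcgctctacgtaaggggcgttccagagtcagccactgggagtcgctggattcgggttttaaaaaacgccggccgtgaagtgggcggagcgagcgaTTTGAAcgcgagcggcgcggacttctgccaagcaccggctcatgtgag
CENPE: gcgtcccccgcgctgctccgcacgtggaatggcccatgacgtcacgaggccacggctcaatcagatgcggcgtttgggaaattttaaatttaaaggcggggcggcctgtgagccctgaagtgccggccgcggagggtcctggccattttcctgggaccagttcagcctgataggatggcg
CDT1: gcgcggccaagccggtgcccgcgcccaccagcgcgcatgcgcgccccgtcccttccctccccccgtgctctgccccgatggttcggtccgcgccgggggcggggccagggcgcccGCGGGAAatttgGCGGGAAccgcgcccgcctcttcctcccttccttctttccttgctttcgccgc
MCM2: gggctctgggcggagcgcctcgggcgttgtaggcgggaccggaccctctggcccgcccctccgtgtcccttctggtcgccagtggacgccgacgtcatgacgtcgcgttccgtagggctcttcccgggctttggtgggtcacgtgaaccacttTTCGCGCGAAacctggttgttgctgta
PCNA: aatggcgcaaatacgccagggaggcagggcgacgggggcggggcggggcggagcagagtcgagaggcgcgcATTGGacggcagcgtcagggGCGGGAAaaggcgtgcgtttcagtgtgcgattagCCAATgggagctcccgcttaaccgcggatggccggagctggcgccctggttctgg

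The stretches lie at chr10:128126394-128126573 (minus strand) for MKI67, chr5:163460482-163460661 (plus strand) for HMMR, chr10:92592980-92593159 (plus strand) for KIF11, chr2:26785906-26786085 (plus strand) for CENPA and chr4:103198314-103198493 (minus strand) for CENPE. Those of the replication genes lie at chr16:88803639-88803818 (plus strand) for CDT1, chr3:127598261-127598440 (plus strand) for MCM2 and chr20:5126593-5126772 (minus strand) for PCNA. In MKI67 a CHR begins 47 and 29 bases before the start, and in HMMR 28 and 22 bases before it. KIF11 has 1 CHR, which begins 28 bases before the start, and CENPA has 1 that begins 18 bases before it. CENPE, whose level differed most between media among the mitosis members, held no match in the stretch shown. CDT1, MCM2 and PCNA held no CHR. E2F motifs begin 35 and 23 bases before the start of CDT1 and 59 bases before that of PCNA, and in MCM2 at positions 4 and 7 counted from the start, where they overlap.

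Over all promoters matched, a CHR was present in 14 of 19 mitosis promoters (73.7%) and in 2 of 22 replication promoters (9.09%), against 11.1% of the 8147 promoters of genes tested and 16.6% of all 27305 promoters. E2F motifs ran the other way, with 4 of 19 mitosis promoters (21.1%) and 17 of 22 replication promoters (77.3%), against 21.5% of genes tested. The NF-Y box was found in 89.5% of mitosis promoters, 63.6% of replication promoters and 37.1% of promoters of genes tested. Within the mitosis list, a CHR was found in 4 of 6 promoters of members called lower in Plasmax than in EMEM and in 10 of 13 of those not called. These matches describe letters in a window and say nothing of which factors were bound.

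**Figure D1:**
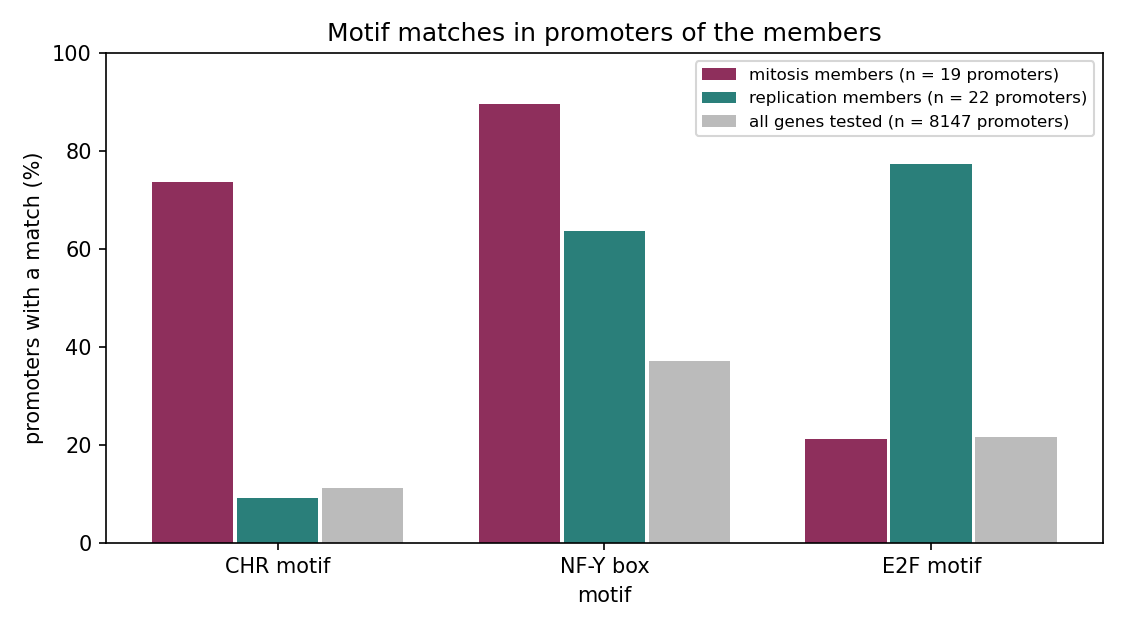
Share of promoters with a match, in percent, for the CHR, the NF-Y box and the E2F motif, in mitosis members (19 promoters), replication members (22 promoters) and all genes tested (8147 promoters). The CHR was found in 73.7% of mitosis promoters and the E2F motif in 77.3% of replication promoters.

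Mitosis genes had their lowest mean level in Plasmax in every case, 24 of 24, whereas the replication genes had no common order. The members were chosen with results of these data known, and the share of all genes lowest in Plasmax is not given here. The mitosis mean was highest in Plasmax-TE for 13 genes, in EMEM for 10 and in Plasmax-TE+Fe for 1. Replication genes were lowest in EMEM in 8 cases, in Plasmax in 7, in Plasmax-TE+Fe in 7 and in Plasmax-TE in 2. The highest medium mean was 1.71 times the lowest for the median mitosis gene, with a range of 1.31 for KIF23 to 2.18 for CENPE. For the median replication gene it was 1.33 times, with a range of 1.09 for MCM3 to 2.73 for CDT1. The 4 media tested together in edgeR gave a Benjamini-Hochberg adjusted p under 0.05 for CENPE, AURKA, MKI67 and BIRC5 among the mitosis genes and for CDT1 among the replication genes. That is 4 of 24 and 1 of 24, against 18% of all genes tested. In bulk RNA, a smaller share of cells in mitosis and less messenger RNA per mitotic cell cannot be told apart.

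**Figure D2:**
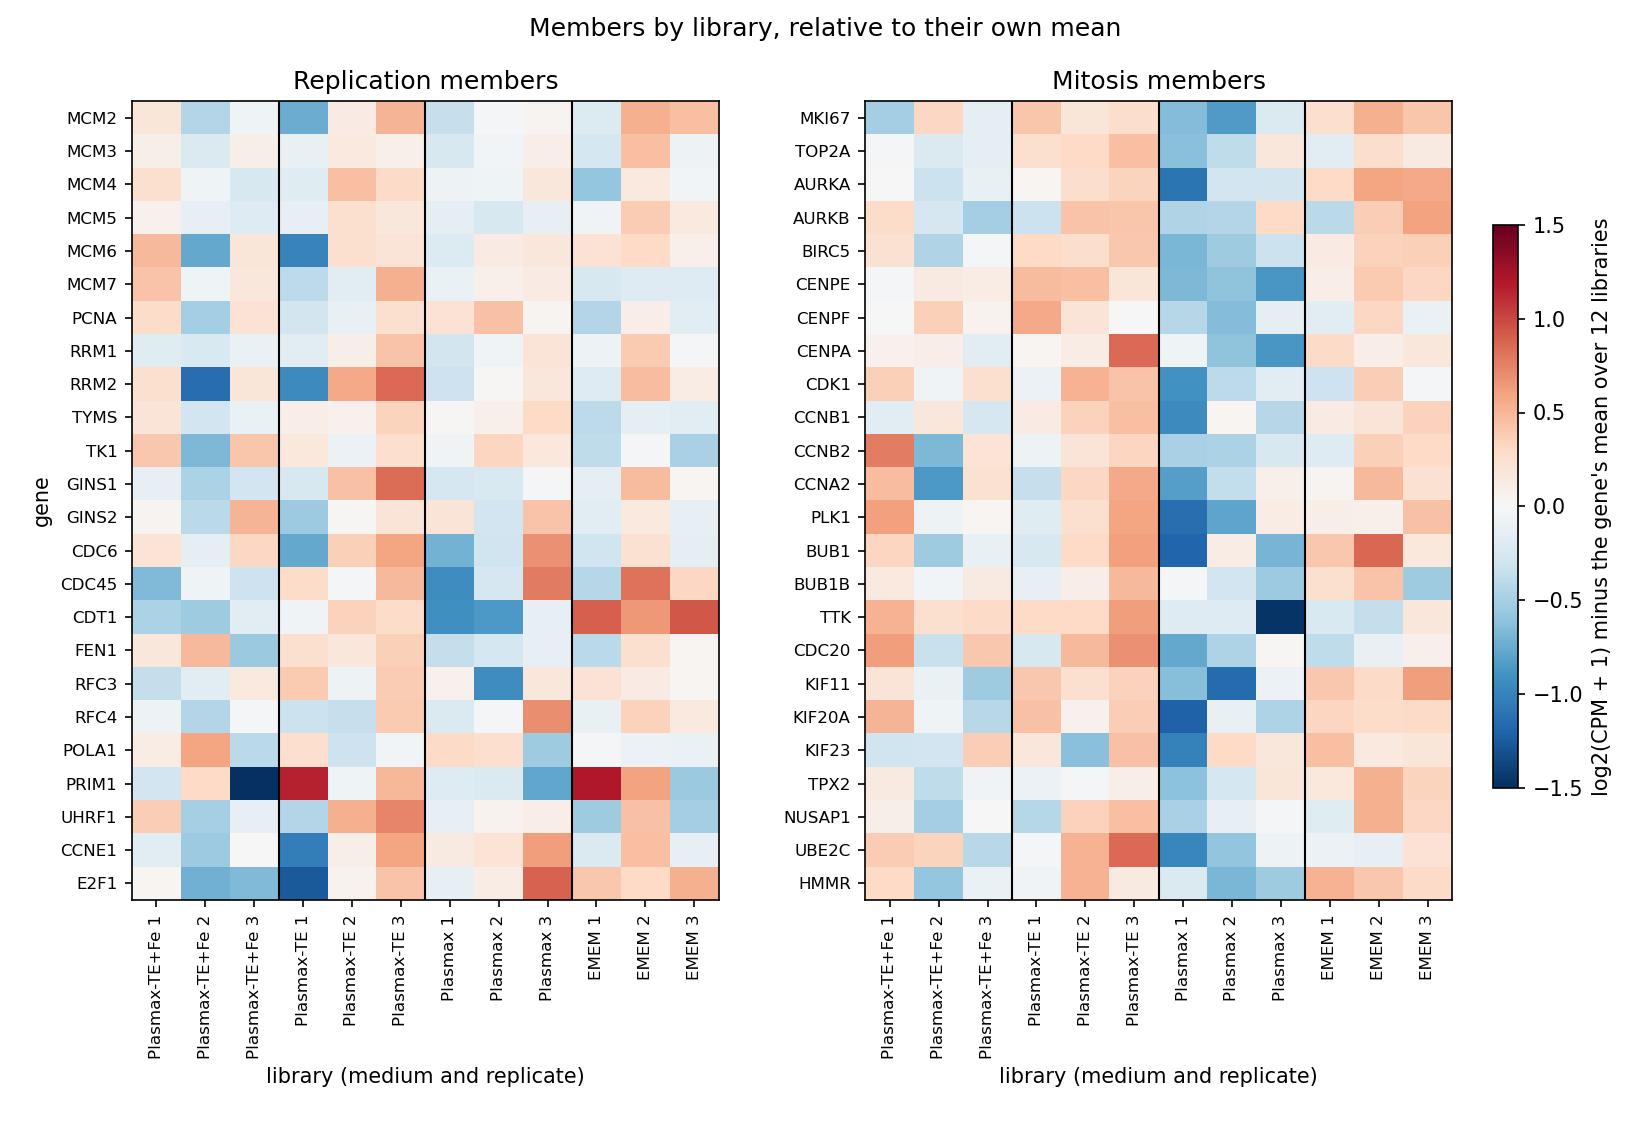
Each square is 1 gene in 1 library, coloured by log2(CPM + 1) minus the gene's mean over the 12 libraries, with values beyond the ends of the scale in the end colours. Replication genes are on the left and mitosis genes on the right, with libraries in the order Plasmax-TE+Fe, Plasmax-TE, Plasmax and EMEM. The Plasmax columns are mostly blue for mitosis genes, and all 24 of them had their lowest mean there.

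Among the proteins of the kinetochore and centromere, CENPE, the motor that moves chromosomes to the spindle equator, had 34.9, 38.9 and 38.2 CPM in Plasmax-TE+Fe, 49.6, 48.5 and 40.3 CPM in Plasmax-TE, 21.8, 23 and 18.9 CPM in Plasmax, and 38, 46.6 and 44.1 CPM in EMEM. All 3 Plasmax libraries lay below all 9 others. This held for no other member, and for 3.85% of all genes tested. CENPF, a large kinetochore protein, had 99.6, 129 and 104 CPM in Plasmax-TE+Fe, 149, 115 and 100 CPM in Plasmax-TE, 74.3, 63.7 and 90.7 CPM in Plasmax, and 89.7, 125 and 93.3 CPM in EMEM. Its Plasmax range overlapped only that of EMEM. CENPA, the histone variant that marks centromeres, averaged 14.1 ± 1.46 CPM in Plasmax-TE+Fe, 18.6 ± 6.6 CPM in Plasmax-TE, 9.83 ± 3.24 CPM in Plasmax and 16.2 ± 1.19 CPM in EMEM (SD, n = 3 each).

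The proliferation antigen MKI67 (Ki-67), which coats mitotic chromosomes, had 43.3, 76.8 and 56.1 CPM in Plasmax-TE+Fe, 83.3, 70.5 and 74.3 CPM in Plasmax-TE, 39, 34 and 53 CPM in Plasmax, and 74.1, 90.2 and 82.8 CPM in EMEM. Every Plasmax library lay below every Plasmax-TE and EMEM library, and the Plasmax-TE+Fe libraries spanned both ranges. TOP2A, the topoisomerase that untangles sister DNA molecules, had 554, 485 and 506 CPM in Plasmax-TE+Fe, 664, 690 and 772 CPM in Plasmax-TE, 365, 430 and 631 CPM in Plasmax, and 504, 673 and 619 CPM in EMEM. Plasmax replicate 3 reached the EMEM range, and 33.5% to 42.7% of all counts of the mitosis list were TOP2A counts. BIRC5 (survivin), a subunit of the chromosomal passenger complex, had 74.4, 46 and 62.1 CPM in Plasmax-TE+Fe, 78.2, 75.8 and 83.7 CPM in Plasmax-TE, 39, 43.4 and 50.3 CPM in Plasmax, and 69.2, 80.5 and 81 CPM in EMEM. No Plasmax library reached the Plasmax-TE or EMEM ranges. AURKB, the kinase of the same complex, averaged 42.7 ± 12.6 CPM in Plasmax-TE+Fe, 54.1 ± 14.7 CPM in Plasmax-TE, 41.8 ± 13.6 CPM in Plasmax and 55.6 ± 18.7 CPM in EMEM, and its libraries overlapped between all media (SD, n = 3 each).

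Aurora kinase A, AURKA, which acts at centrosomes and on the spindle, had 97.9, 78.4 and 90.9 CPM in Plasmax-TE+Fe, 100, 118 and 124 CPM in Plasmax-TE, 45.5, 79.9 and 81.2 CPM in Plasmax, and 121, 148 and 146 CPM in EMEM. EMEM stood above Plasmax and Plasmax-TE+Fe without overlap, and Plasmax-TE above Plasmax. PLK1, a kinase that drives entry into mitosis and its progress, had 200, 124 and 133 CPM in Plasmax-TE+Fe, 115, 155 and 197 CPM in Plasmax-TE, 58.9, 75.2 and 141 CPM in Plasmax, and 139, 138 and 177 CPM in EMEM. Plasmax replicate 3 lay within the ranges of the other media. CDK1, the kinase that triggers mitosis, had 46.2, 34.6 and 42.7 CPM in Plasmax-TE+Fe, 33.7, 52.1 and 48.7 CPM in Plasmax-TE, 18.6, 27.2 and 31.9 CPM in Plasmax, and 28.7, 46.6 and 35.5 CPM in EMEM. The Plasmax libraries lay below those of Plasmax-TE and Plasmax-TE+Fe but overlapped with EMEM. Its partner CCNB1 (cyclin B1) had 21.9, 27.6 and 20.4 CPM in Plasmax-TE+Fe, 26.8, 31.4 and 34 CPM in Plasmax-TE, 12.2, 25.1 and 18 CPM in Plasmax, and 26.8, 28.1 and 31.4 CPM in EMEM. Plasmax replicate 1 was by far the lowest of these 12 values.

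KIF11, the motor that pushes spindle poles apart, had 12.2, 9.73 and 6.95 CPM in Plasmax-TE+Fe, 14.3, 12.6 and 13.6 CPM in Plasmax-TE, 6.4, 4.18 and 9.87 CPM in Plasmax, and 14.3, 13 and 16.8 CPM in EMEM. EMEM and Plasmax-TE lay above Plasmax without overlap. HMMR, which binds spindle microtubules, had 20.6, 10.8 and 15.4 CPM in Plasmax-TE+Fe, 16, 24.2 and 18.3 CPM in Plasmax-TE, 14.1, 9.92 and 11.2 CPM in Plasmax, and 24.3, 22.2 and 20.5 CPM in EMEM. The Plasmax and EMEM libraries did not overlap. TPX2, which activates Aurora A on spindle microtubules, had 78.2, 54.6 and 68.5 CPM in Plasmax-TE+Fe, 66.8, 69.6 and 75.9 CPM in Plasmax-TE, 46.1, 59 and 80.8 CPM in Plasmax, and 79.7, 103 and 89.6 CPM in EMEM. Its Plasmax and EMEM ranges overlapped through Plasmax replicate 3. UBE2C, the ubiquitin-conjugating enzyme of the anaphase-promoting complex, had 52.1, 50.8 and 29.8 CPM in Plasmax-TE+Fe, 39.4, 57.9 and 72.7 CPM in Plasmax-TE, 19.8, 26.1 and 37.7 CPM in Plasmax, and 37.4, 36.5 and 46.4 CPM in EMEM. Plasmax lay below Plasmax-TE without overlap. TTK, a kinase of the spindle checkpoint, had 10.1, 8.11 and 8.44 CPM in Plasmax-TE+Fe, 8.56, 8.53 and 11 CPM in Plasmax-TE, 5.76, 5.75 and 1.8 CPM in Plasmax, and 5.61, 5.03 and 7.73 CPM in EMEM. These are low levels, 4 to 24 counts a library, and Plasmax lay below Plasmax-TE+Fe and Plasmax-TE.

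**Figure D3:**
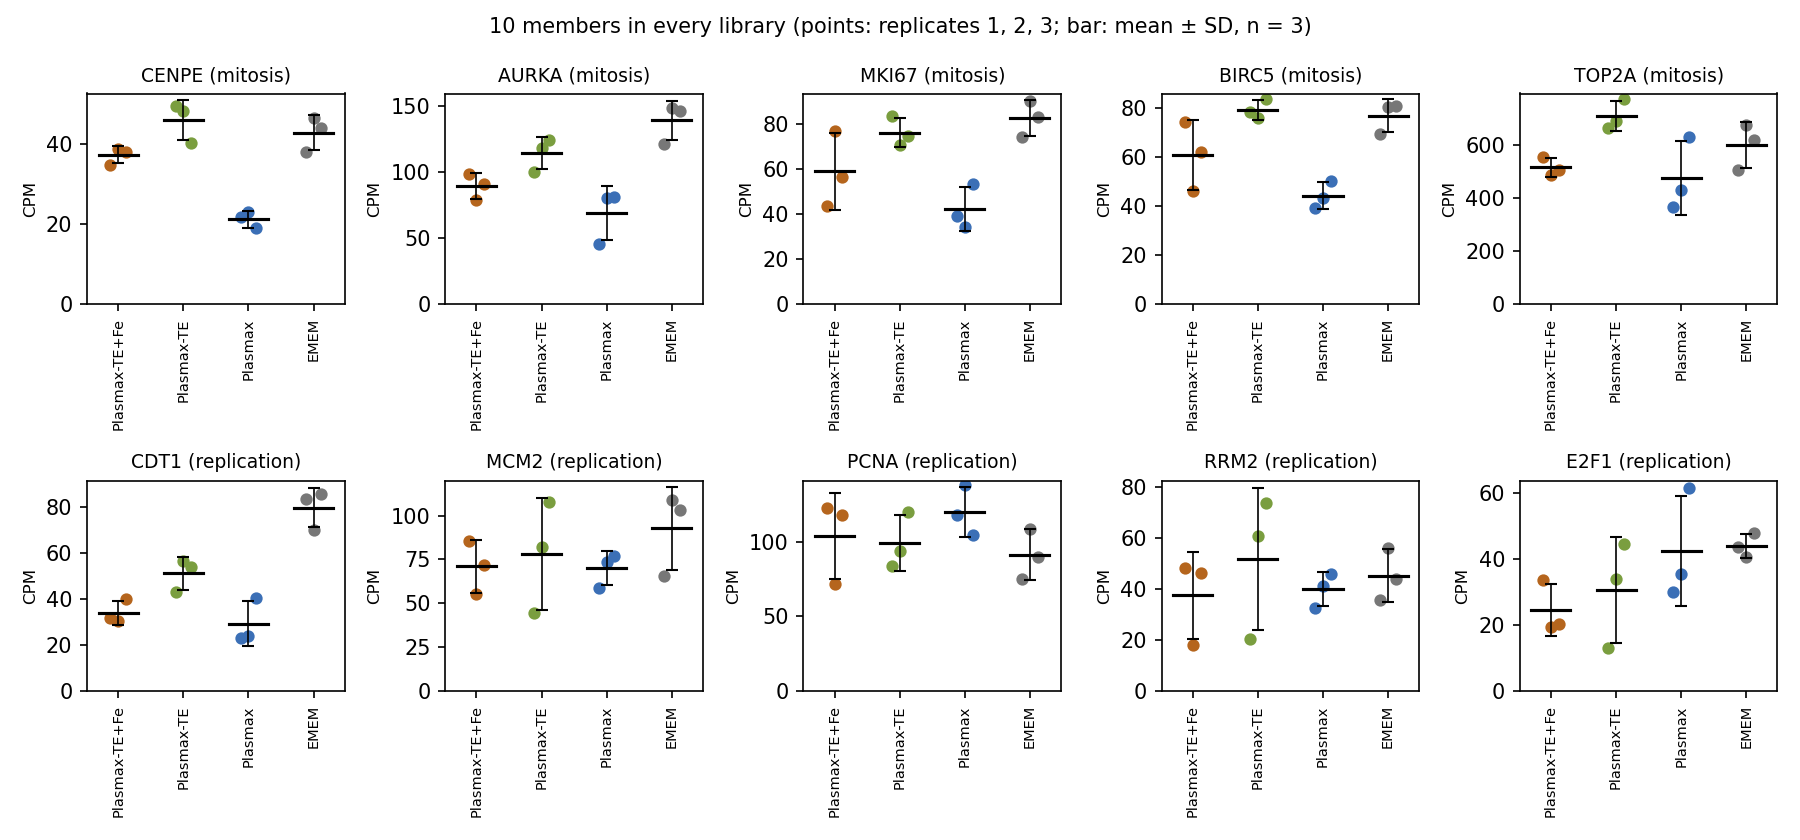
Levels in CPM of 10 members in every library (points, replicates 1 to 3) with mean ± SD (n = 3) for Plasmax-TE+Fe, Plasmax-TE, Plasmax and EMEM. CENPE averaged 21.2 CPM in Plasmax and 37.4 to 46.1 CPM in the other media, while RRM2 and MCM2 each have 1 Plasmax-TE library far below the other 2.

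Of the replication genes, CDT1, the origin licensing factor, had 31.5, 30.3 and 39.7 CPM in Plasmax-TE+Fe, 42.8, 56.5 and 53.9 CPM in Plasmax-TE, 23, 24 and 40.4 CPM in Plasmax, and 83.5, 70 and 85.5 CPM in EMEM. EMEM stood above every library of the other 3 media, and Plasmax below Plasmax-TE. The MCM helicase subunit MCM2 had 85.7, 55.2 and 72 CPM in Plasmax-TE+Fe, 44.5, 82.1 and 108 CPM in Plasmax-TE, 58.9, 73.7 and 77.2 CPM in Plasmax, and 65.4, 109 and 103 CPM in EMEM. Its ranges overlapped between all media, and the lowest value was Plasmax-TE replicate 1. MCM5, another subunit, had 34, 29.7 and 28.3 CPM in Plasmax-TE+Fe, 29.7, 38.6 and 36.6 CPM in Plasmax-TE, 29.4, 27.2 and 29.6 CPM in Plasmax, and 31.2, 42.4 and 35.9 CPM in EMEM. The 3 Plasmax libraries lay just below those of EMEM and Plasmax-TE, and neither difference was called.

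PCNA, the sliding clamp, had 123, 71.4 and 118 CPM in Plasmax-TE+Fe, 83.9, 93.8 and 120 CPM in Plasmax-TE, 118, 138 and 105 CPM in Plasmax, and 74.8, 109 and 90.1 CPM in EMEM. Plasmax held the highest mean and the ranges overlapped between all media. RRM2, the iron-holding subunit of ribonucleotide reductase, had 48.3, 17.8 and 46.2 CPM in Plasmax-TE+Fe, 20.5, 61 and 73.8 CPM in Plasmax-TE, 32.6, 41.3 and 45.8 CPM in Plasmax, and 35.5, 56.2 and 44.1 CPM in EMEM. Both low values, 17.8 and 20.5 CPM, are in the libraries numbered 88 and 87. Its partner RRM1 had 77.3, 74.6 and 82 CPM in Plasmax-TE+Fe, 78.7, 92.9 and 118 CPM in Plasmax-TE, 72.3, 84.6 and 100 CPM in Plasmax, and 82.9, 115 and 86.4 CPM in EMEM. Each Plasmax-TE+Fe library lay below each EMEM library. TYMS, thymidylate synthase, had 109, 77.9 and 88.9 CPM in Plasmax-TE+Fe, 102, 100 and 121 CPM in Plasmax-TE, 96.7, 101 and 118 CPM in Plasmax, and 72.3, 87.2 and 84.6 CPM in EMEM. EMEM was low relative to both Plasmax and Plasmax-TE, without overlap.

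FEN1, which trims Okazaki fragments, had 53.4, 66.5 and 31.8 CPM in Plasmax-TE+Fe, 55.9, 53.4 and 60.7 CPM in Plasmax-TE, 36.5, 39.2 and 43.1 CPM in Plasmax, and 35.5, 55.8 and 48.2 CPM in EMEM. Plasmax-TE lay above Plasmax without overlap. E2F1, a transcription factor of S phase genes, had 33.6, 19.5 and 20.4 CPM in Plasmax-TE+Fe, 13.1, 34.1 and 44.5 CPM in Plasmax-TE, 30.1, 35.5 and 61.5 CPM in Plasmax, and 43.6, 40.7 and 47.8 CPM in EMEM. Its spread within Plasmax-TE and Plasmax exceeded the gaps between their means. GINS1, a subunit of the GINS complex, had 11.3, 8.65 and 9.93 CPM in Plasmax-TE+Fe, 10.3, 17.1 and 23 CPM in Plasmax-TE, 10.2, 10.4 and 12.1 CPM in Plasmax, and 11.2, 17.6 and 12.7 CPM in EMEM. Plasmax-TE replicates 2 and 3 were above all other libraries but EMEM replicate 2. PRIM1, the primase subunit, had 2.94, 4.87 and 0.497 CPM in Plasmax-TE+Fe, 9.7, 3.59 and 5.76 CPM in Plasmax-TE, 3.2, 3.13 and 1.8 CPM in Plasmax, and 9.97, 6.29 and 2.27 CPM in EMEM. Its fold changes rest on 1 to 17 counts a library.

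CDC45, which joins GINS and the MCM ring in the active helicase, had 2.52, 4.33 and 3.48 CPM in Plasmax-TE+Fe, 5.71, 4.49 and 6.8 CPM in Plasmax-TE, 1.92, 3.66 and 8.53 CPM in Plasmax, and 3.12, 8.81 and 5.91 CPM in EMEM. Plasmax-TE+Fe lay below Plasmax-TE without overlap, at 3 to 21 counts a library. CCNE1 (cyclin E1), which drives the G1 to S step, had 12.2, 9.19 and 13.9 CPM in Plasmax-TE+Fe, 6.28, 14.8 and 21.5 CPM in Plasmax-TE, 15.4, 16.2 and 22 CPM in Plasmax, and 11.8, 19.3 and 12.7 CPM in EMEM. Plasmax-TE+Fe lay below Plasmax without overlap. RFC3, a clamp loader subunit, had 16.8, 19.5 and 24.3 CPM in Plasmax-TE+Fe, 29.1, 20.6 and 28.8 CPM in Plasmax-TE, 23, 11 and 24.7 CPM in Plasmax, and 25.5, 23.9 and 22.3 CPM in EMEM. Its ranges overlapped between all media. RFC4, another subunit of the loader, had 19.8, 15.1 and 20.4 CPM in Plasmax-TE+Fe, 16.5, 16.2 and 27.7 CPM in Plasmax-TE, 17.9, 20.4 and 34.6 CPM in Plasmax, and 19.3, 26.8 and 23.2 CPM in EMEM. Its ranges overlapped as well. The remaining replication members, MCM3, MCM4, MCM6, MCM7, TK1, GINS2, CDC6, POLA1 and UHRF1, had highest means 1.09 to 1.49 times their lowest. The remaining mitosis members, CCNB2, CCNA2, BUB1, BUB1B, CDC20, KIF20A, KIF23 and NUSAP1, had highest means 1.31 to 2.1 times their lowest, again with the lowest in Plasmax. For 9 of the 48 members a neighbouring gene overlaps the last 300 bases in the GENCODE 29 annotation. In 5 of them, CCNA2, GINS2, KIF20A, RFC4 and TYMS, the neighbour (EXOSC9, GSE1, CDC23, EIF4A2 and ENOSF1) is on the opposite strand and in the table. The sources used here do not say whether counting used strand, so reads of these pairs may not be told apart.

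Plasmax against EMEM asks what the plasma-like medium does to the cycle genes relative to the standard medium. Mitosis genes were lower in Plasmax, while of the replication genes only CDT1 was called. Of 24 mitosis members, 9 fell at an adjusted p under 0.05 and none rose, with a median log2 fold change of -0.64 and all 24 below 0. Of 24 replication members, 1 fell, with a median of -0.12, and 13 were below 0. Over all genes tested, 21.4% were called (9.9% higher and 11.5% lower) and the median was -0.01. The libraries of both media did not overlap, with Plasmax lower, in 11 mitosis members and 2 replication members, against 18.2% of all genes. With Plasmax higher, this held for 0 mitosis members and 2 replication members, MCM7 and TYMS, against 21.6% of all genes.

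The members called lower in Plasmax were the centromere motor CENPE, the kinases AURKA and BUB1, MKI67, BIRC5, the spindle proteins HMMR, KIF11 and TPX2, and CCNB1. CENPE averaged 21.2 ± 2.12 CPM in Plasmax and 42.9 ± 4.41 CPM in EMEM (SD, n = 3 each), with a log2 fold change of -1.08 ± 0.18 (SE, adjusted p = 2e-04). For AURKA the means were 68.9 ± 20.3 CPM in Plasmax and 139 ± 14.9 CPM in EMEM, with a log2 fold change of -1.05 ± 0.20 (SE, adjusted p = 0.00079). MKI67 fell to 42 ± 9.84 CPM in Plasmax, against 82.4 ± 8.03 CPM in EMEM, with a log2 fold change of -1.01 ± 0.20 (SE, adjusted p = 0.0012). For these 3 genes the level in Plasmax was 2.11-fold, 2.07-fold and 2.01-fold lower. BIRC5 fell by less, with a log2 fold change of -0.84 ± 0.19 (SE, adjusted p = 0.0036). HMMR gave a log2 fold change of -0.98 ± 0.28 (SE, adjusted p = 0.015), and KIF11 a log2 fold change of -1.12 ± 0.32 (SE, adjusted p = 0.018). All 6 of these genes had no overlap between libraries of both media. BUB1 (-1.11), CCNB1 (-0.68) and TPX2 (-0.58) were called with adjusted p of 0.03, 0.044 and 0.047. BUB1 and CCNB1 had no overlap either, whereas TPX2 did overlap. TOP2A had a log2 fold change of -0.37 ± 0.19 (SE, adjusted p = 0.17) and CDK1 a log2 fold change of -0.55 ± 0.25 (SE, adjusted p = 0.12), and neither was called.

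Among the replication genes CDT1 fell to 29.2 ± 9.75 CPM in Plasmax, against 79.7 ± 8.41 CPM in EMEM (SD, n = 3 each), with a log2 fold change of -1.47 ± 0.22 (SE, adjusted p = 8.5e-05), or 2.77-fold lower. The next genes by p were not called. MCM5 had a log2 fold change of -0.40 ± 0.20 (SE, adjusted p = 0.15), PRIM1 a log2 fold change of -1.20 ± 0.60 (SE, adjusted p = 0.17), and TYMS a log2 fold change of 0.33 ± 0.18 (SE, adjusted p = 0.2). MCM2 had a log2 fold change of -0.46 and RRM2 one of -0.23. PCNA had 0.34, with a mean that was higher in Plasmax. The 4 genes of deoxynucleotide supply had log2 fold changes of -0.23 to 0.41 and the 6 MCM subunits -0.46 to 0.20. The difference in response between both lists was not itself tested.

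Without the libraries numbered 88 and 87, 15 mitosis members and 1 replication member were called in this comparison. The share of all genes called in that fit is not given here, so the rise may not be particular to the members. Within the 3 runs of consecutive library numbers the mitosis median, as log2 of (CPM + 1) ratios, was -0.78, -0.77 and -0.43, and the replication median -0.09, -0.43 and 0.21.

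**Figure D4:**
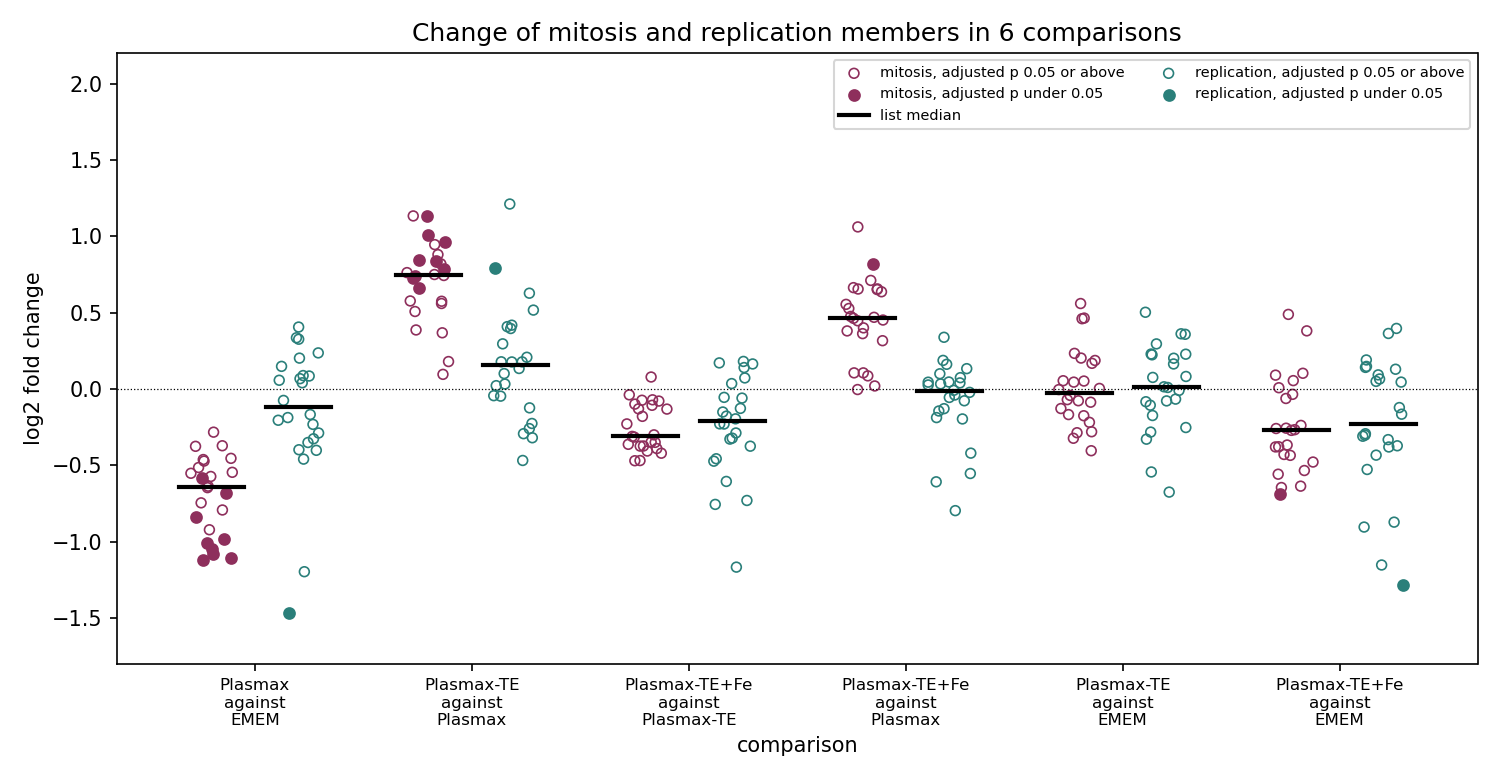
Log2 fold change of each mitosis member (left of each pair) and each replication member (right) in 6 comparisons. Filled points had an adjusted p under 0.05 and bars are list medians, which for mitosis were -0.64 in Plasmax against EMEM and 0.75 in Plasmax-TE against Plasmax, and for replication -0.12 and 0.16.

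Plasmax-TE against Plasmax asks what leaving out the trace elements does. The mitosis genes were higher without trace elements: 9 of 24 rose and none fell, with a median of 0.75 and all 24 above 0. Of the replication genes CDT1 rose and 23 were not called, with a median of 0.16 and 16 above 0. Among all genes 11.2% were called, 5.61% higher and 5.63% lower, and their median was 0.02. The libraries did not overlap, with Plasmax-TE higher, in 15 mitosis and 4 replication members, against 15% of all genes. With Plasmax-TE lower, this held for 0 of each list, against 15.4% of all genes. Both this comparison and the one above use the same 3 Plasmax libraries, so a high or low value there moves both.

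All 3 centromere members rose. CENPE averaged 46.1 ± 5.09 CPM in Plasmax-TE and 21.2 ± 2.12 CPM in Plasmax (SD, n = 3 each), with a log2 fold change of 1.13 ± 0.18 (SE, adjusted p = 0.00043). CENPF had a log2 fold change of 0.66 ± 0.18 (SE, adjusted p = 0.025), and CENPA 0.96 with an adjusted p of 0.042, a call lost under 10 of 20 alternatives, DESeq2 and the replicate block among them. BIRC5 rose to 79.2 ± 4.06 CPM in Plasmax-TE, against 44.2 ± 5.66 CPM in Plasmax, with a log2 fold change of 0.84 ± 0.19 (SE, adjusted p = 0.0082). MKI67 had a log2 fold change of 0.84 ± 0.20 (SE, adjusted p = 0.011). UBE2C rose 2.01-fold, with a log2 fold change of 1.01 ± 0.27 (SE, adjusted p = 0.022). AURKA had a log2 fold change of 0.72 ± 0.20 (SE, adjusted p = 0.024). CDK1 (0.79) and CCNB1 (0.74) were called with adjusted p of 0.044 and 0.047. In all 9 genes the libraries of both media did not overlap. TOP2A, with a log2 fold change of 0.57 ± 0.19 (SE, adjusted p = 0.052), and PLK1, with a log2 fold change of 0.75 ± 0.28 (SE, adjusted p = 0.093), were not called.

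CDT1 rose to 51.1 ± 7.29 CPM in Plasmax-TE, against 29.2 ± 9.75 CPM in Plasmax (SD, n = 3 each), with a log2 fold change of 0.79 ± 0.23 (SE, adjusted p = 0.03). FEN1 had a log2 fold change of 0.52 ± 0.22 (SE, adjusted p = 0.14), GINS1 a log2 fold change of 0.63 ± 0.31 (SE, adjusted p = 0.2), and PRIM1 a log2 fold change of 1.21 ± 0.60 (SE, adjusted p = 0.21). These 3 were not called, nor were RFC3 (0.41) and MCM5 (0.30). RRM2 had 0.40, MCM2 0.18 and PCNA -0.26. E2F1 had -0.47.

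The number of mitosis genes called was 4, 4, 4 and 2 when Plasmax-TE replicate 3, Plasmax-TE replicate 2, Plasmax replicate 1 or Plasmax replicate 2 was omitted, and CDT1 was not called in any of these 4 cases. CENPE was called in every case. Without the libraries numbered 88 and 87, 13 mitosis and 3 replication members (CDT1, GINS1 and RRM2) were called. The share of all genes called in these reduced fits is not given here. In runs of consecutive library numbers the mitosis median was 0.91, 0.70 and 0.60, with 23 of 24 genes above 0 in each, and the replication median -0.05, 0.17 and 0.20.

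Plasmax-TE+Fe against Plasmax-TE asks what iron alone does when it is put back. No member was called in either list by edgeR or by DESeq2, where 0.258% of all genes were called by edgeR (0.0861% higher and 0.172% lower). At an unadjusted p under 0.05 by edgeR there were 1 mitosis and 2 replication members, against 974 of all 10459 genes. Fitted values leaned below 0, with a median of -0.31 over the mitosis members (23 of 24 below 0) and of -0.21 over the replication members (18 of 24 below 0), against 0.00 over all genes. The libraries did not overlap, with Plasmax-TE+Fe lower, in 5 mitosis and 2 replication members, against 6.52% of all genes, and with Plasmax-TE+Fe higher in 0 of each list, against 6.91%.

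By p the first mitosis gene was TOP2A, with 515 ± 35.4 CPM in Plasmax-TE+Fe and 709 ± 56.7 CPM in Plasmax-TE (SD, n = 3 each) and a log2 fold change of -0.47 ± 0.19 (SE, adjusted p = 0.42). BIRC5 (-0.37), MKI67 (-0.39), CENPE (-0.31), CCNB1 (-0.42) and AURKA (-0.36) followed, with adjusted p of 0.55 to 0.6. CDT1 was the first replication gene, with 33.8 ± 5.14 CPM in Plasmax-TE+Fe and 51.1 ± 7.29 CPM in Plasmax-TE and a log2 fold change of -0.61 ± 0.22 (SE, adjusted p = 0.36). GINS1 had a log2 fold change of -0.76 ± 0.30 (SE, adjusted p = 0.43). Next were PRIM1 (-1.17), RRM1 (-0.32), CDC45 (-0.73) and RFC3 (-0.38). RRM2, the subunit that holds iron, had 37.5 ± 17 CPM in Plasmax-TE+Fe and 51.8 ± 27.8 CPM in Plasmax-TE, with a log2 fold change of -0.47 ± 0.36 (SE, adjusted p = 0.75). Each of these 2 media holds 1 library of the pair that stands apart, and without both libraries 0 members of either list were called. In runs of library numbers the mitosis median was -0.24, -0.30 and -0.16.

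Plasmax-TE+Fe against Plasmax compares the iron-supplemented medium without other trace elements with the complete one. CENPE rose, and no other member was called, where 1.2% of all genes were called (0.507% higher and 0.698% lower). Mitosis genes had a median of 0.47, with 23 of 24 above 0, and replication genes one of -0.02, with 11 of 24 above 0, against 0.01 over all genes. At an unadjusted p under 0.05 by edgeR there were 10 mitosis members and 1 replication member, against 1420 of all 10459 genes. DESeq2 called 1 mitosis and 0 replication members. The libraries did not overlap, with Plasmax-TE+Fe higher, in 4 mitosis and 0 replication members, against 8.67% of all genes. With Plasmax-TE+Fe lower, this held for 0 mitosis members and 1 replication member, against 9.7% of all genes.

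CENPE averaged 37.4 ± 2.17 CPM in Plasmax-TE+Fe and 21.2 ± 2.12 CPM in Plasmax (SD, n = 3 each), with a log2 fold change of 0.82 ± 0.18 (SE, adjusted p = 0.026). CENPF had a log2 fold change of 0.53 ± 0.18 (SE, adjusted p = 0.19), TTK a log2 fold change of 1.06 ± 0.39 (SE, adjusted p = 0.22), and CDK1 a log2 fold change of 0.66 ± 0.25 (SE, adjusted p = 0.24). PLK1 (0.71) and BIRC5 (0.46) followed, with adjusted p of 0.26 and 0.29. In the replication list E2F1 came first with 24.5 ± 7.93 CPM in Plasmax-TE+Fe and 42.4 ± 16.8 CPM in Plasmax and a log2 fold change of -0.80 ± 0.34 (SE, adjusted p = 0.3). CCNE1 had a log2 fold change of -0.61 ± 0.35 (SE, adjusted p = 0.46). FEN1 (0.34), RFC4 (-0.42), TYMS (-0.20) and CDC45 (-0.55) were next and were not called.

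The call of CENPE was lost when any 1 of these 6 libraries was left out, and when only these 6 were fitted. Without the pair of libraries that stands apart, 3 mitosis members were called, and the share of all genes called is not given here. Within runs of library numbers the mitosis median was 0.48, 0.46 and 0.48.

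Plasmax-TE against EMEM called no member of either list, where 4.81% of all genes were called (1.62% higher and 3.19% lower). The median was -0.02 over mitosis members, 0.01 over replication members and 0.00 over all genes, and DESeq2 called 0 in each. With library size as the only scaling the mitosis median was 0.02. Of all 10459 genes, 1975 reached an unadjusted p under 0.05 by edgeR, among them 0 mitosis and 1 replication members. CDT1 was this gene, with 51.1 ± 7.29 CPM in Plasmax-TE and 79.7 ± 8.41 CPM in EMEM (SD, n = 3 each) and a log2 fold change of -0.68 ± 0.21 (SE, adjusted p = 0.072). TYMS had 0.36 and E2F1 -0.54. TPX2 had -0.40, UBE2C 0.46 and AURKA -0.32, with adjusted p of 0.29 to 0.39.

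Plasmax-TE+Fe against EMEM had AURKA lower among the mitosis genes and CDT1 lower among the replication genes, 1 of 24 in each list, where 9.65% of all genes were called (3.67% higher and 5.98% lower). AURKA averaged 89.1 ± 9.89 CPM in Plasmax-TE+Fe and 139 ± 14.9 CPM in EMEM (SD, n = 3 each), with a log2 fold change of -0.69 ± 0.19 (SE, adjusted p = 0.029). CDT1 averaged 33.8 ± 5.14 CPM in Plasmax-TE+Fe and 79.7 ± 8.41 CPM in EMEM, with a log2 fold change of -1.28 ± 0.22 (SE, adjusted p = 0.00062), or 2.43-fold lower. MKI67 had a log2 fold change of -0.56 ± 0.20 (SE, adjusted p = 0.075), and TPX2 -0.48. E2F1 (-0.87) and PRIM1 (-1.15) were not called. Medians were -0.27 for mitosis members, -0.23 for replication members and 0.01 for all genes. The call of AURKA was lost without EMEM replicate 2, EMEM replicate 3, Plasmax-TE+Fe replicate 2 or Plasmax-TE+Fe replicate 3.

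Summed over each list, the mitosis genes held 1470 ± 157 CPM in Plasmax-TE+Fe, 1820 ± 178 CPM in Plasmax-TE, 1160 ± 286 CPM in Plasmax and 1700 ± 201 CPM in EMEM (SD, n = 3 each). The replication genes held 970 ± 133 CPM in Plasmax-TE+Fe, 1080 ± 213 CPM in Plasmax-TE, 1010 ± 117 CPM in Plasmax and 1050 ± 158 CPM in EMEM. The ratio of mitosis to replication counts was 1.51, 1.63 and 1.43 in Plasmax-TE+Fe, 1.90, 1.66 and 1.55 in Plasmax-TE, 1.02, 1.10 and 1.31 in Plasmax, and 1.64, 1.53 and 1.70 in EMEM. All 3 Plasmax libraries lay below the other 9. Without TOP2A, the most counted mitosis gene, the ratio was 0.618 to 0.749 in Plasmax and 0.922 to 1.14 in the other libraries. The ratio needs no scaling between libraries, and it was 1.63 and 1.90 in the libraries numbered 88 and 87, which were low in both sums relative to the others of their media. The members were chosen with results of these data known, so the ratio is a description and carries no test.

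**Figure D5:**
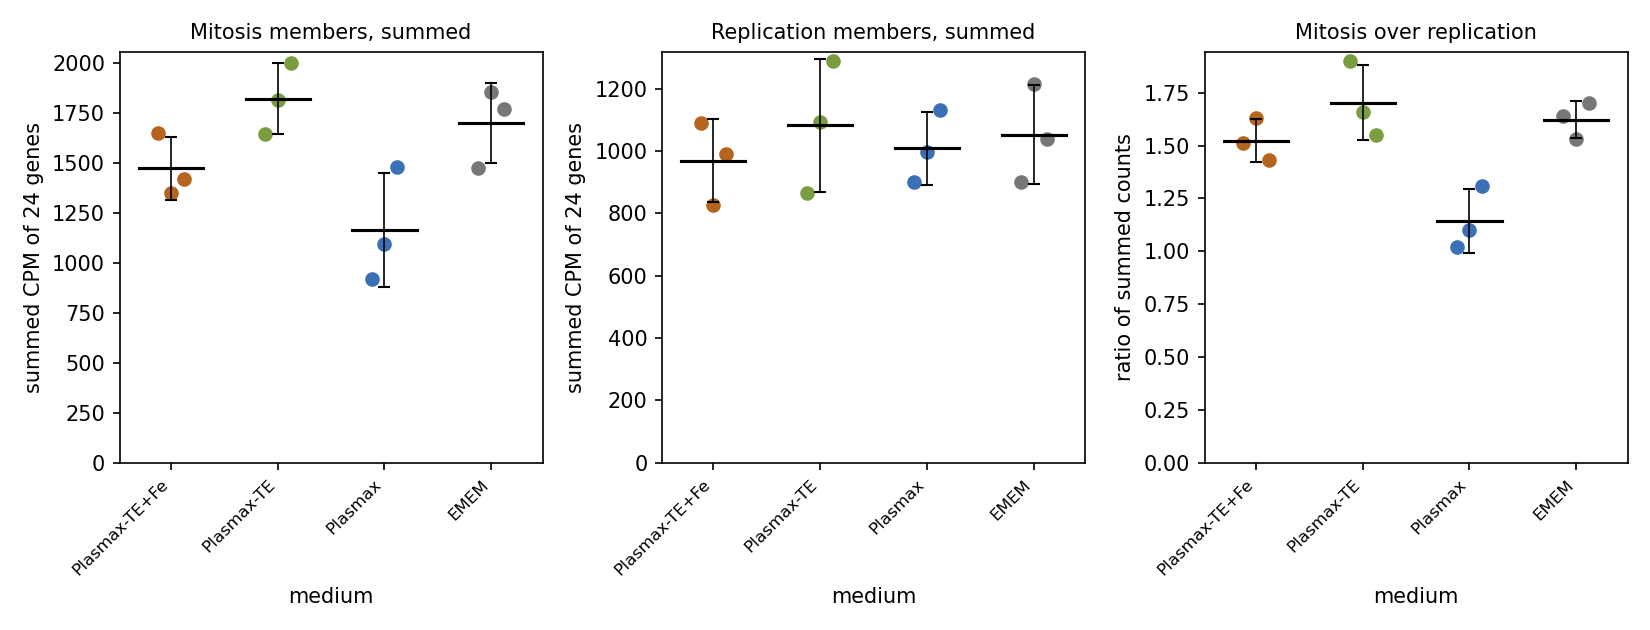
Summed level in CPM of 24 mitosis members and 24 replication members, and the ratio of their summed counts, for Plasmax-TE+Fe, Plasmax-TE, Plasmax and EMEM (points, replicates; bars, mean ± SD, n = 3). The ratio averaged 1.52, 1.70, 1.14 and 1.62 in these media.

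Other genes of mitosis and of replication that are not members were counted the same way. Of 67 other mitosis genes tested, Plasmax against EMEM had 17 lower and 0 higher (median -0.49), and Plasmax-TE against Plasmax 14 higher and 0 lower (median 0.63). These are 25.4% and 20.9% of the list, against 21.4% and 11.2% of all genes called in these comparisons, and DESeq2 called 12 and 13. The passenger complex protein CDCA8 (borealin) had 24.8 ± 3.86 CPM in Plasmax-TE+Fe, 30.7 ± 2.77 in Plasmax-TE, 16.1 ± 1.61 in Plasmax and 30 ± 2.08 in EMEM (SD, n = 3 each). Its log2 fold changes were -0.95 ± 0.20 in Plasmax against EMEM (adjusted p = 0.0024) and 0.94 ± 0.20 in Plasmax-TE against Plasmax (adjusted p = 0.0057). The spindle pole protein ASPM fell by 1.26 in Plasmax relative to EMEM (adjusted p = 0.0027), and CKAP2L, a spindle protein, rose by 0.98 in Plasmax-TE relative to Plasmax (adjusted p = 0.0053). In Plasmax-TE+Fe against Plasmax-TE edgeR and DESeq2 each called 0 of the 67. By edgeR 3 of the 67 had an unadjusted p under 0.05, against 974 of all 10459 genes. Plasmax-TE+Fe against Plasmax had 1 higher, SGO2, which protects centromere cohesion (1.15 ± 0.26, adjusted p = 0.029, lost under 5 of 20 alternatives). That is 1.49% of the list, against 1.2% of all genes. FOXM1, a transcription factor of mitosis genes, was not called in any comparison, with 23.8 ± 3.72, 34.6 ± 6.42, 20.5 ± 10.7 and 18.7 ± 4 CPM in Plasmax-TE+Fe, Plasmax-TE, Plasmax and EMEM.

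Of 59 other replication genes tested, Plasmax against EMEM had 5 lower and 1 higher (median -0.17), and Plasmax-TE against Plasmax 4 higher and 0 lower (median 0.25). These are 10.2% and 6.78% of the list, against 21.4% and 11.2% of all genes, and DESeq2 called 6 and 2. GMNN (geminin), the inhibitor of CDT1, was among those called in both comparisons, with 55.0 ± 6.87 CPM in Plasmax-TE+Fe, 68.8 ± 7.07 in Plasmax-TE, 43.6 ± 0.811 in Plasmax and 82.1 ± 20.8 in EMEM (SD, n = 3 each). Its log2 fold changes were -0.97 ± 0.175 in Plasmax against EMEM (SE, adjusted p = 0.00049) and 0.66 ± 0.18 in Plasmax-TE against Plasmax (adjusted p = 0.021). RFC1, the large clamp loader subunit, fell by 0.82 in Plasmax relative to EMEM (adjusted p = 0.0018), and DNMT1, the maintenance DNA methyltransferase, rose by 0.71 (adjusted p = 0.0041). ORC6, a subunit of the origin recognition complex, had -0.75 ± 0.21 in Plasmax against EMEM (adjusted p = 0.016) and 0.76 ± 0.21 in Plasmax-TE against Plasmax (adjusted p = 0.026), and DESeq2 did not call it in Plasmax-TE against Plasmax. None of the 59 was called in Plasmax-TE+Fe against Plasmax-TE or in Plasmax-TE+Fe against Plasmax, by edgeR or by DESeq2. By edgeR 3 in each had an unadjusted p under 0.05, against 974 and 1420 of all 10459 genes.

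Regulators of the cycle moved in both directions. Of 36 tested, Plasmax against EMEM had 8 higher and 8 lower, and Plasmax-TE against Plasmax 2 higher and 5 lower. These are 44.4% and 19.4% of the list, against 21.4% and 11.2% of all genes. CDKN1A (p21), an inhibitor of cyclin-dependent kinases and a p53 target, had 164, 102 and 193 CPM in Plasmax-TE+Fe, 79.3, 109 and 80.6 CPM in Plasmax-TE, 200, 312 and 280 CPM in Plasmax, and 96.6, 94.8 and 88.3 CPM in EMEM. Every Plasmax library exceeded every other library. It rose in Plasmax relative to EMEM by 1.45 ± 0.22 (adjusted p = 8e-05) and fell in Plasmax-TE relative to Plasmax by 1.55 ± 0.22 (adjusted p = 0.00018). The inhibitor CDKN2A, which encodes p16 and p14ARF, rose in Plasmax relative to EMEM by 2.77 ± 0.29 (adjusted p = 1.6e-06). In Plasmax-TE relative to Plasmax CDKN2A fell by 1.70 ± 0.26 (adjusted p = 0.00038), and in Plasmax-TE+Fe relative to Plasmax by 1.08 ± 0.25 (adjusted p = 0.034), a call lost under 8 of 20 alternatives with an adjusted p of up to 0.27. CDKN2B (p15) had 3.58 ± 0.56 and -2.76 ± 0.50 in Plasmax against EMEM and Plasmax-TE against Plasmax (adjusted p = 1e-04 and 0.0016). SKP2, the ubiquitin ligase subunit that targets p27, ran the other way, with -1.12 ± 0.24 and 1.08 ± 0.24 (adjusted p = 0.0023 and 0.0068). Not all inhibitors rose in Plasmax relative to EMEM. By edgeR CDKN2C (-1.89), CDKN2D (-1.19) and CDKN1B (p27, -0.53) were called lower there, with adjusted p of 0.0055, 0.033 and 0.043. In Plasmax-TE against Plasmax CDKN2C was called higher (1.57, adjusted p = 0.037), and CDKN2D and CDKN1B were not called. CCND1 (cyclin D1) had 296 ± 46.0, 244 ± 46.1, 376 ± 10.7 and 210 ± 30.2 CPM in Plasmax-TE+Fe, Plasmax-TE, Plasmax and EMEM. It rose in Plasmax relative to EMEM by 0.79 ± 0.17 (adjusted p = 0.0023) and fell in Plasmax-TE relative to Plasmax by 0.61 ± 0.17 (adjusted p = 0.024). In Plasmax-TE+Fe against Plasmax-TE edgeR and DESeq2 each called 0 regulators. By edgeR 4 of the 36 had an unadjusted p under 0.05, against 974 of all 10459 genes.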

How the data were processed

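RNA of HepG2 cells was made into QuantSeq 3′ libraries, which read the ends of transcripts, per the labels' protocols. Per the submitters' processing notes, FastQC 0.72, cutadapt 1.16, STAR 2.7.5b, featureCounts 1.6.3, limma 3.40.6 and the builds hg19 and GRCh37 were named; their settings are not stated there. The authors deposited raw counts per gene for 12 libraries. Counts of a transcript's end were not divided by length, and levels are given as CPM of the library total. Of 10994 entries, 54 surplus entries of repeated genes were left out. In R 4.3.3, edgeR 4.0.16 (filterByExpr with a minimum count of 10 and minimum total of 15, TMM factors of 0.964 to 1.06, quasi-likelihood test) fitted all 12 libraries at once, with 8 residual degrees of freedom. A call is a Benjamini-Hochberg adjusted p under 0.05 over 10459 genes, and the SE is the log2 fold change divided by the root of F. The filter removed no member.

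The members and lists were chosen with earlier results of these data known. Genes described are, in each of the first 4 comparisons, the 6 members of lowest p in each list, called or not, 3 in the other comparisons with EMEM, RRM2, PCNA, MCM2, MKI67, TOP2A and CDK1 throughout, up to 3 genes of lowest p in other lists, and CDKN1A, CCND1, E2F1 and FOXM1; other genes named were picked with their values in view. Alternatives were DESeq2 1.42.0, other scaling, no filter, blocks, fewer libraries and each library left out. The script was tested on simulated data. Replicate numbers did not pair libraries: deviations from group means correlated at -0.43 to 0.17 between libraries of the same number. Runs are libraries whose names carry consecutive numbers, with 1 library of each medium in a run; correlations within them were 0.025 to 0.53, and the labels do not say what the numbers mean. For a single gene, an exact permutation test of 3 against 3 libraries cannot go below 0.1 and was not used.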

Additional observations from a re-analysis of the deposited data

How the results depend on the processing

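Counts of called members were recomputed under 20 alternatives. The share of all genes called under each is not given here, so these counts do not set the members against other genes. With the replicate number as a block, which does not pair these libraries, mitosis calls were 10 in Plasmax against EMEM and 9 in Plasmax-TE against Plasmax, and no call count moved past 1.5 times. With the run of library numbers as a block, Plasmax against EMEM had 18 mitosis and 2 replication calls, Plasmax-TE+Fe against Plasmax 4 mitosis calls, Plasmax-TE against EMEM 1 replication call, Plasmax-TE+Fe against EMEM 3 mitosis and 2 replication calls, and the 4 media together 15 mitosis and 2 replication calls. Fitting only the 6 libraries compared gave 0 mitosis calls in Plasmax-TE+Fe against Plasmax, 1 replication call in Plasmax-TE against EMEM and 2 in Plasmax-TE+Fe against EMEM. Without Plasmax-TE+Fe replicate 2 and Plasmax-TE replicate 1, mitosis calls were 15 in Plasmax against EMEM, 3 in Plasmax-TE+Fe against Plasmax, 2 in Plasmax-TE+Fe against EMEM and 14 over the 4 media, and replication calls were 3 in Plasmax-TE against Plasmax, 2 in Plasmax-TE+Fe against EMEM and 2 over the 4 media.

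With 1 library left out, mitosis calls ran from 6 to 12 in Plasmax against EMEM, 2 to 12 in Plasmax-TE against Plasmax, 0 to 0 in Plasmax-TE+Fe against Plasmax-TE, 0 to 1 in Plasmax-TE+Fe against Plasmax, 0 to 0 in Plasmax-TE against EMEM, 0 to 2 in Plasmax-TE+Fe against EMEM and 3 to 11 over the 4 media (11 without Plasmax-TE+Fe replicate 2, 8 without Plasmax-TE replicate 1, 10 without Plasmax replicate 3). Replication calls ran from 1 to 1, 0 to 1, 0 to 0, 0 to 0, 0 to 1, 1 to 2 and 1 to 2 in these comparisons in that order. CENPE, AURKA, MKI67, BIRC5 and CDT1 in Plasmax against EMEM, CENPE in Plasmax-TE against Plasmax and CDT1 in Plasmax-TE+Fe against EMEM were called under all 20. The calls of CCNB1 were lost under 11 in Plasmax against EMEM and 12 in Plasmax-TE against Plasmax, that of TPX2 under 11, and in Plasmax-TE against Plasmax those of CENPA under 10, CDK1 under 6 and CENPF under 5. With 1 library left out, signs turned for genes not called. FOXM1 ran from -0.47 (without Plasmax replicate 3) to 0.356 in Plasmax against EMEM, where it was -0.02 without EMEM replicate 2. In Plasmax-TE+Fe against Plasmax it ran from -0.0398 (without Plasmax replicate 1) to 0.77, with -0.04 without Plasmax replicate 2. CDC45 in Plasmax-TE+Fe against Plasmax ran from -0.881 to 0.27, the last without Plasmax replicate 3. The cause was not tested. With library size as the only scaling, 49.5% of all genes called in Plasmax-TE+Fe against EMEM were higher, against 38.1% with TMM; in Plasmax against EMEM these were 54.8% and 46.4%, so the commoner direction turned. Genes under about 20 counts, such as PRIM1, CDC45 and TTK, are limited by depth. DESeq2 gave no adjusted p for 4 gene results, which are left out.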

Other observations

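Tested here were 16 genes that encode iron-dependent or iron-sulfur enzymes of DNA metabolism and the cytosolic machinery that assembles such clusters. RRM2B was the only 1 of them called by edgeR in Plasmax against EMEM and in Plasmax-TE against Plasmax. That is 6.25% of the list in each, against 21.4% and 11.2% of all genes. RRM2B encodes the ribonucleotide reductase subunit induced by p53. RRM2B had 29, 29.7 and 29.3 CPM in Plasmax-TE+Fe, 30.8, 30.5 and 29.3 CPM in Plasmax-TE, 53.1, 66.9 and 35.9 CPM in Plasmax, and 20.6, 18.5 and 20.5 CPM in EMEM. All Plasmax libraries lay above the others, and all EMEM libraries below. With edgeR's quasi-likelihood test, adjusted over all genes, it rose in Plasmax relative to EMEM by 1.32 ± 0.20 on the log2 scale (SE, adjusted p = 1e-04). It fell by 0.76 ± 0.20 in Plasmax-TE relative to Plasmax (adjusted p = 0.017) and by 0.81 ± 0.20 in Plasmax-TE+Fe relative to Plasmax (adjusted p = 0.044); the last call was lost under 14 of 20 alternatives, with an adjusted p of up to 0.31. PRIM2, the primase subunit that holds an iron-sulfur cluster, rose by 1.34 ± 0.37 in Plasmax-TE relative to EMEM (adjusted p = 0.039), a call that DESeq2 did not make. In Plasmax-TE+Fe against Plasmax-TE edgeR and DESeq2 each called 0 of the 16 genes. By edgeR 1 of the 16 had an unadjusted p under 0.05, against 974 of all 10459 genes.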
